A study of Rattus norvegicus with 15 samples.

Results

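Basement membrane genes of the laminin, nidogen and agrin families were followed in H9c2, a rat myoblast line from the embryonic heart, during culture with and without retinoic acid. The genes were chosen by name from a list of 10, namely Lama2, Lama4, Lama5, Lamb1, Lamb2, Lamc1, Nid1, Nid2, Hspg2 and Agrn. Of these, 8 are among the 11574 genes of the count table, and Lama2 and Hspg2 were not analysed here. The RNA came from 15 cultures in 5 groups of 3. All cultures were labelled wild type. T0 cells were harvested 24 h after seeding, and T7-RA and T14-RA cells were kept for 7 and 14 days without the compound. T7+RA and T14+RA cells received 1 μM all-trans retinoic acid (RA), prepared in DMSO, every day for the same times, and whether the -RA cultures received DMSO is not stated in the sources used here. All cultures were seeded in 10% fetal bovine serum, which was lowered to 1% after an attachment period of 24 h. T0 was harvested at the end of that period, so each contrast with T0 also compares 10% with 1% serum, and the effects of days in culture and of serum cannot be told apart. The cell line field of the labels reads H9c2 only for T0 and counts up from H9c3 in the other cultures, whereas every title names H9c2. All groups come from 1 line, and separate cultures of it are the replicates.

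The basement membrane is a sheet of extracellular matrix that surrounds each muscle fibre. Its laminins are trimers of an alpha, a beta and a gamma chain, which self-assemble on the cell surface and bind integrins and dystroglycan through the alpha chain. Nidogens link the gamma 1 chain to the collagen IV network, and the heparan sulfate proteoglycans perlecan (Hspg2) and agrin bind the laminin layer, with agrin also clustering acetylcholine receptors at the neuromuscular junction. Lamb1 has been a classical late target of RA in embryonal carcinoma cells.

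Among the 8 genes, Nid2 and Lama4 had the largest RA changes at each day. Nid2 was 2.04-fold higher with RA at day 7 and was lowered to 0.475 of the -RA level at day 14, and it was the only gene among the 11574 that rose at day 7 and fell at day 14 at an adjusted p under 0.001. Nid1 was 1.57-fold higher with RA at day 7. Of the 2 measured alpha chains, Lama4 was lowered by RA to 0.499 of its -RA level over both days and Lama5 was raised 1.39-fold. Lamc1, the gamma 1 chain that nearly all muscle laminins share, was lower at both later days than at T0 and did not pass the test with RA.

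Promoter sequences of the 3 genes that passed the test for RA over both days are shown first, since RA receptors act by binding DNA. They are the 250 bases before the start of transcription in RefSeq, taken from the rat build GRCr8, while the counts were made on Rnor_6.0. Lama4 lies at chr20:43946648-43946897 on the plus strand, Lama5 at chr3:187695975-187696224 on the minus strand and Nid1 at chr17:93069036-93069285 on the plus strand. Capitals mark AGGTCA, the half-site bound by RA receptors, and GGGCGG, the GC box, on either strand.
Lama4: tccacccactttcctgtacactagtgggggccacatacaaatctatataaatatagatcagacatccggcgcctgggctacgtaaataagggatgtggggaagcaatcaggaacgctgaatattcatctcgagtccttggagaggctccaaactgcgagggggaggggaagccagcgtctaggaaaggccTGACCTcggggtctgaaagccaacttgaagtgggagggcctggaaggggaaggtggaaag
Lama5: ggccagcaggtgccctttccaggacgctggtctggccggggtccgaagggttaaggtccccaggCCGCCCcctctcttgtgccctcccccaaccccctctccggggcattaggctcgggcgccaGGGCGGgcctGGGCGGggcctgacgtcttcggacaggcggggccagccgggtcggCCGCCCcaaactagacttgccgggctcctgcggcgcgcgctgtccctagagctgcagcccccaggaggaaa
Nid1: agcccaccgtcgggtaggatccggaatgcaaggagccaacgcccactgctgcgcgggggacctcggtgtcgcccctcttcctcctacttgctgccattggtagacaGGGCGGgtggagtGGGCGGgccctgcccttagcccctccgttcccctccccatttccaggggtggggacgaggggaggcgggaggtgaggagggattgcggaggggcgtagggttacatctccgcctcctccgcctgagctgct
Lama4 held 1 half-site, on the minus strand and starting 60 bases before the start of transcription, and no GC box. Lama5 held 4 GC boxes and Nid1 held 2, and neither held a half-site. Among 33469 rat promoter windows of this length, 4707 held AGGTCA and 10197 (30.5%) held GGGCGG. Direct repeats of AGGTCA with 5 or 2 bases of any kind between them were in 0 of the 8 listed genes with a window, which include Lama2 and Hspg2, and in 3 and 0 of all windows. The share of G and C was 53.2% for Lama4, 72.8% for Lama5 and 68% for Nid1, against a median of 51.2% over all windows, and TATAAA, held by 12.9% of all windows, was found in Lama4 alone of the 8. Nid2 and Lamb2 have no window in the table. A match or its absence in this window is a description of the letters only.

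Levels are given in CPM, counts scaled to a common library size by edgeR with TMM factors, which assume that most genes do not change. Library totals ranged from 508397 to 1030820 counts, and Lama4, Lama5, Lamb1, Lamb2, Lamc1, Nid1, Nid2 and Agrn had between 26 counts (Lama4) and 1820 counts (Lama5) in a library. The edgeR quasi-likelihood test was fitted to all 11574 genes with Benjamini-Hochberg adjustment, and the threshold for a call was the study's adjusted p of 0.001, or 0.05 for the difference between days. An additive model gave a T7, a T14 and an RA term, where RA is the mean change over both days, and a model with 5 group means gave each pairwise contrast. Differences are on the log2 scale with the standard error (SE). On simulated counts with 200 genes changed by 1 on the log2 scale, the RA term recovered 90.9% of the changed genes whose mean count was at least the median of all genes and 21.8% of the others. The T14 term recovered 72.7% and 3.96% of them at the same size of change, so a T14 change of a low gene that missed the threshold is weakly informative. These rates hold for the simulated 200 changed genes, whereas edgeR called 740 genes for RA and 2004 for T14 in the data. The T0 libraries differed most among themselves, with a chi-square per gene from 1.96 to 2.77, against 1.07 to 1.86 within the other groups.

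The muscle identity of the cultures was checked first. Of 7 markers of the skeletal muscle lineage, 6 were measured, and their summed level was between 187 and 244 CPM at T0. Without RA it was 1779 to 2116 CPM at day 7 and 5779 to 6064 CPM at day 14, and with RA 991 to 1162 and 2450.2 to 2846 CPM. At day 14 most of this sum was Myh3, an embryonic myosin heavy chain, with group means of 5056 CPM in T14-RA and 1874 CPM in T14+RA. For the RA term edgeR called 2 of the 6 lower and 0 higher, with 6.39% of all genes called in either direction. Actn2, a sarcomeric actinin, had means of 39.3 and 7.49 CPM and Myog, a myogenic transcription factor, 638 and 569 CPM in T14-RA and T14+RA. Other members had other patterns, with means of 63.3 and 70.8 CPM for Ckm and 40.3 and 39.5 CPM for Des in the same groups, and Myod1 had 87.9 CPM in T7-RA and 149 CPM in T7+RA. Of 7 cardiomyocyte markers, Gata4 alone was measured, at 6.9 to 21.6 CPM in a library, and Myh6, Nppa, Nppb, Myl7, Tnni3 and Nkx2-5 were not analysed here. Endothelial and epithelial cell markers, which could mark other makers of basement membrane, were represented by 1 gene each (Tek and Krt8), with at most 6.29 and 43.6 CPM in a library, and 0 of 2 leukocyte markers were measured. Among 5 fibroblast markers 4 were measured, and their sum, nearly all of it Col1a1, was 24632 to 37564 CPM at T0 and 18448 to 25742 CPM in the other groups. Dcn and Lum went the other way, from a mean of 0 CPM each at T0 to 50.5 and 28.5 CPM in T14-RA and 119.7 and 6.24 CPM in T14+RA. All 3 smooth muscle markers were measured, and their sum, nearly all of it Acta2, was between 12665 and 13527 CPM at T0 and between 2555 and 4079.6 CPM later. Myh11 had means of 10 CPM at T0, 13.2 CPM in T14-RA and 9.95 CPM in T14+RA. The part of these shifts in the results below was not tested, and in bulk RNA fewer cells of a type and less RNA per cell cannot be told apart.

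At T0 the level per length, as CPM per kb of the longest transcript, was highest for Nid1 with 299 ± 26 (SD, n = 3) and Lamc1 with 279 ± 33.9, which did not differ beyond their spread. They were followed by Nid2 at 119 ± 9.76, Lama5 at 105 ± 26.5, Lamb1 at 94.2 ± 21.7 and Lamb2 at 89.5 ± 14.6 CPM per kb, neighbours that also overlapped. Agrn at 21.7 ± 1.17 and Lama4 at 12.8 ± 1.15 CPM per kb were lowest and were apart from each other. In T14+RA the order was different, with Nid1 at 199 ± 19.6 and Lamc1 at 182 ± 12.5 CPM per kb within their spread, then Lama5 at 153 ± 14.9, Lamb2 at 121 ± 3.87, Lamb1 at 100 ± 2.87, Nid2 at 20.3 ± 3.58, Agrn at 18.2 ± 1.24 and Lama4 at 9.74 ± 2.39. Nid2 was thus beside the laminin chains at T0 and beside agrin in T14+RA.

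**Figure D1:**
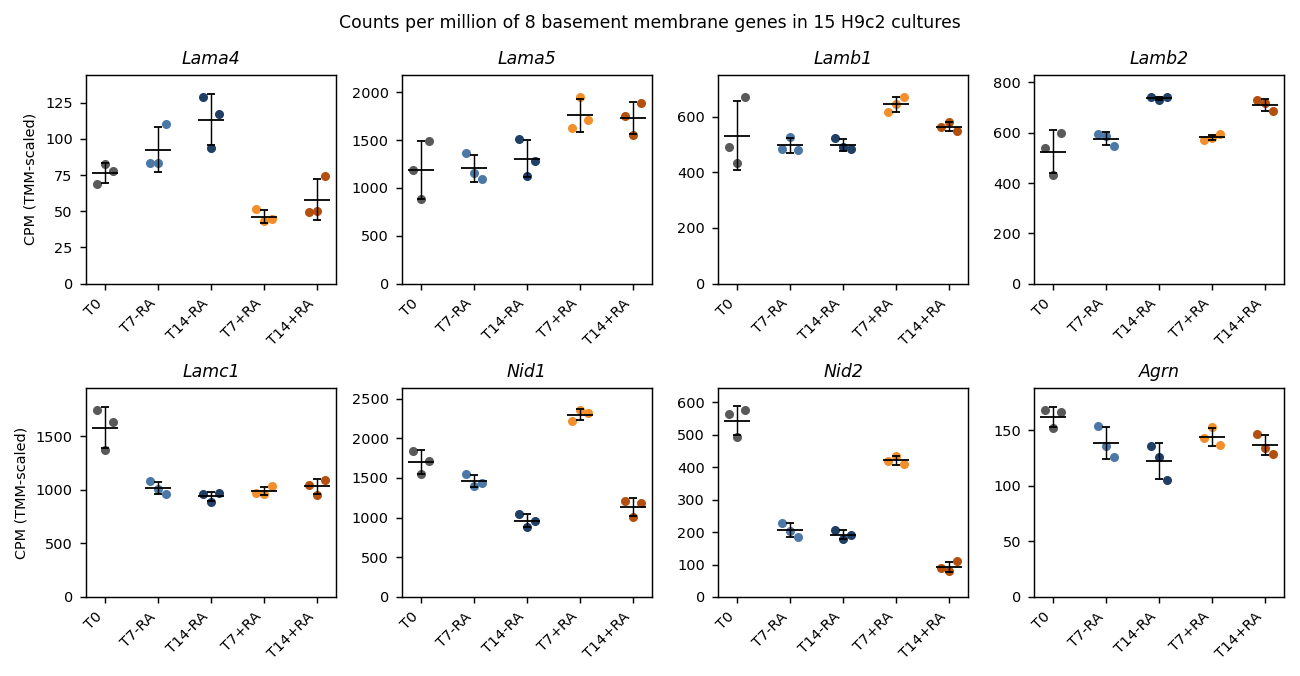
Library-scaled counts in CPM (TMM factors, linear axis from 0, a separate scale for each gene) of the 8 measured basement membrane genes in each culture, as 3 points per group with a bar for the mean and whiskers for the SD. Nid2 sits between 409.6 and 435 CPM in T7+RA but between 78.6 and 111 CPM in T14+RA, whereas the -RA cultures of both days lie between 179 and 229 CPM.

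Nidogens were described next, because Nid2 had the largest difference between days. Nid2 (ENSRNOG00000000341, 15p16) was measured at 563, 493 and 576 CPM at T0, 229, 203 and 186 CPM for T7-RA, and 208, 179 and 189.7 CPM for T14-RA. With RA it stood at 419, 435 and 409.6 CPM at day 7 and at 88.7, 78.6 and 111 CPM at day 14. Every T7+RA culture was therefore above every T7-RA culture and below every T0 culture, and every T14+RA culture was below every other culture of the series. The RA change was 1.03 at day 7 (SE 0.115, edgeR adjusted p = 1.41e-10) and −1.07 at day 14 (SE 0.143, edgeR adjusted p = 1.93e-08).

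The difference between these changes, −2.10 on the log2 scale (SE 0.184, edgeR adjusted p = 3.06e-13), had the rank 2 by p among all 11574 genes. Omission of any single library gave values from −2.23 to −2.02. RA changes were called at day 7 in 3.17% of all genes, at day 14 in 4.81%, and the difference in 0.743%. A total of 247 genes were called at both days, and Nid2 was the 1 gene among them with a rise at day 7 and a fall at day 14, while 0 had the reverse order. Because the additive model has a single RA term, it gave Nid2 a change of 0.18 (SE 0.316, edgeR adjusted p = 0.816), which describes neither day.

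Without RA, Nid2 fell in the first week, and its second-week change did not pass the test. Its change was −1.40 from T0 to T7-RA (SE 0.115, edgeR adjusted p = 1.03e-15) and −0.10 from T7-RA to T14-RA (SE 0.126, edgeR adjusted p = 0.78). With RA it fell by 2.20 on the log2 scale in the second week (SE 0.131, edgeR adjusted p = 1.22e-21), to 0.218 of the day 7 level. The T14 term of Nid2 (−2.02, SE 0.381, edgeR adjusted p = 0.00129) missed the threshold in edgeR and passed it in DESeq2 (adjusted p = 3.62e-05) and limma-voom (adjusted p = 6.7e-09).

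Nid1 (ENSRNOG00000002461, 17q12.3), the other nidogen, was measured at 1842, 1546 and 1717 CPM at T0, 1552, 1396 and 1438 CPM for T7-RA and 1046, 877 and 960.1 CPM for T14-RA. With RA the values were 2217, 2353 and 2322 CPM at day 7 and 1208, 1006 and 1189 CPM at day 14. The T7+RA cultures were the highest of the series, above T0 as well, while the T14+RA and T14-RA ranges overlapped. The RA term was 0.45 (SE 0.0768, edgeR adjusted p = 6.61e-06), made up of 0.65 at day 7 (SE 0.0898, edgeR adjusted p = 6.46e-08) and 0.24 at day 14 (SE 0.0932, edgeR adjusted p = 0.0948). The difference between the days, −0.41 (SE 0.129, edgeR adjusted p = 0.155), did not pass the test.

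In the first week without RA the change of Nid1, −0.22 (SE 0.0907, edgeR adjusted p = 0.0721), did not pass the test. It then fell by 0.60 on the log2 scale in the second week without RA (SE 0.0924, edgeR adjusted p = 1.26e-06) and by 1.02 in the second week with RA (SE 0.0912, edgeR adjusted p = 7.52e-14). Nid1 and Nid2 were the genes of the 8 called in the second week with RA, where 4.67% of all genes were called, and Nid1 was the only one called without RA, where 2.95% were.

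**Figure D2:**
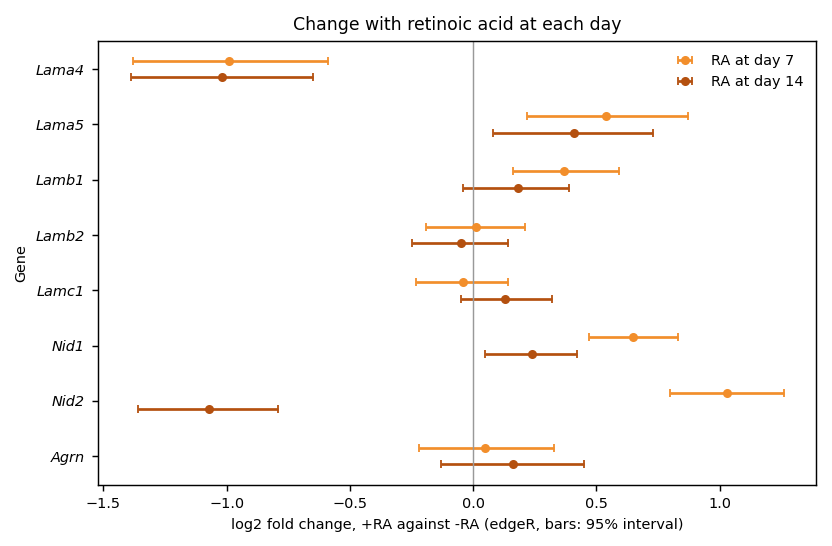
Log2 fold change of +RA against -RA cultures at day 7 and at day 14 for each gene, with edgeR's estimate as a point and its 95% interval as a bar. Lama4 lies near −1 at both days, and Nid2 lies at 1.03 at day 7 and −1.07 at day 14.

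Among the alpha chains, which carry the receptor-binding end of the trimer, Lama4 and Lama5 moved in opposite directions with RA. Lama4 (ENSRNOG00000000599, 20q12), the alpha 4 chain of mesenchymal and vascular laminins, was measured at 69, 82.6 and 77.6 CPM at T0, 83.5, 83.3 and 110.4 CPM for T7-RA, and 129, 93.9 and 117 CPM for T14-RA. It stood at 51.3, 43 and 44.6 CPM for T7+RA and at 49.2, 50.3 and 74.3 CPM for T14+RA. All 6 +RA cultures were below all 6 -RA cultures of days 7 and 14, and 1 of them overlapped the T0 range. The RA term was 0.499-fold, with a 95% interval from −1.28 to −0.73 on the log2 scale (SE 0.136, edgeR adjusted p = 3.69e-08). Omission of any single library gave log2 values from −1.08 to −0.94, all of them called.

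The RA change of Lama4 was −0.99 at day 7 (SE 0.199, edgeR adjusted p = 0.000221) and −1.02 at day 14 (SE 0.186, edgeR adjusted p = 2.72e-05), and their difference was −0.03, with a 95% interval from −0.60 to 0.53. At day 7 the call was lost without T7-RA replicate 3 (adjusted p = 0.00811) or without T7+RA replicate 1 (0.00101), 2 (0.005) or 3 (0.00258), and in DESeq2 (0.00172). At day 14 it was lost without T14-RA replicate 1 (adjusted p = 0.00235) or T14+RA replicate 1 (0.0034). Limma on quantile-normalized counts called neither day (adjusted p = 0.00947 and 0.00779). The difference of Lama4 between T14-RA and T0 was 0.59 (SE 0.184, edgeR adjusted p = 0.00899), which missed the threshold.

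Lama5 (ENSRNOG00000053691, 3q43) encodes the alpha 5 chain, the most widespread alpha chain of adult basement membranes. It was measured at 1190.5, 887 and 1486 CPM at T0, 1365, 1161 and 1092 CPM for T7-RA, 1509, 1126 and 1278 CPM for T14-RA, 1624, 1951 and 1705 CPM for T7+RA and 1756, 1554 and 1889 CPM for T14+RA. All 6 +RA cultures were above all 9 cultures without RA, and T0 had the widest spread. The RA term was 0.48 (SE 0.0938, edgeR adjusted p = 0.000319), with 0.54 at day 7 (SE 0.153, edgeR adjusted p = 0.0392) and 0.41 at day 14 (SE 0.153, edgeR adjusted p = 0.117), neither of them called. The T7 and T14 terms, 0.06 and 0.11, missed the threshold, with edgeR adjusted p of 0.782 and 0.561, and both took the opposite sign without T0 replicate 2.

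The RA call of Lama5 was close to the threshold. It was lost without T7-RA replicate 2 or 3, T14-RA replicate 2 or 3, T7+RA replicate 2, or T14+RA replicate 1 or 3, with adjusted p between 0.00103 and 0.00232. Its day 7 change was called as well without T0 replicate 2 (adjusted p = 1.87e-05) or T0 replicate 3 (0.000221), and in limma-voom (0.000409).

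Of the beta chains, Lamb2 rose by day 14, and Lamb1 was called in no comparison. Lamb2 (ENSRNOG00000047768, 8q32), the beta chain concentrated at the neuromuscular junction, was measured at 541, 432 and 599.5 CPM at T0, 595, 586 and 546 CPM for T7-RA, 742, 731 and 740.0 CPM for T14-RA, 572, 579.9 and 593 CPM for T7+RA and 729, 717 and 685 CPM for T14+RA. The day 14 cultures of both arms were above all others, and at day 14 the +RA range lay just below the -RA range. The T14 term was 0.48 (SE 0.103, edgeR adjusted p = 0.000157), and it missed the threshold without T0 replicate 2 (adjusted p = 0.00381), the lowest T0 culture. The RA term was −0.02, with a 95% interval from −0.17 to 0.13, and this small value had the opposite sign without T14+RA replicate 3.

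Lamb1 (ENSRNOG00000005678, 6q16), the common beta chain, was measured at 492, 433 and 669 CPM at T0, 484, 527 and 479 CPM for T7-RA and 524, 489 and 484 CPM for T14-RA. With RA it was measured at 617, 646 and 670.2 CPM at day 7 and 562, 581 and 549 CPM at day 14. The ranges with and without RA did not overlap at either day, while the T0 cultures ran from below all of them to the level of T7+RA. Separation of 3 cultures from 3 reaches a two-sided p of 0.1 at best in an exact test, and how many of all genes separate is not given here. The RA term of 0.28 (SE 0.0818, edgeR adjusted p = 0.0128) and the day 7 change of 0.37 (SE 0.106, edgeR adjusted p = 0.0143) missed the threshold of 0.001, and both would pass 0.05. The T7 and T14 terms were −0.04 and −0.13, both of which took the opposite sign without T0 replicate 3, the highest T0 culture.

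The gamma chain Lamc1 (ENSRNOG00000002680, 13q21) was measured at 1741, 1368 and 1629 CPM at T0, 1077, 1011 and 961 CPM for T7-RA, 959, 889 and 969 CPM for T14-RA, 969, 958 and 1032 CPM for T7+RA and 1047, 952 and 1091 CPM for T14+RA. All 12 later cultures lay below every T0 culture, and the ranges of the 4 later groups overlapped. The T7 term was −0.68 (SE 0.0951, edgeR adjusted p = 9.64e-08) and the T14 term −0.71 (SE 0.0962, edgeR adjusted p = 1.87e-08), so the fall was in place by day 7. The RA term was 0.04, with a 95% interval from −0.10 to 0.19, and had the opposite sign with limma on quantile-normalized counts.

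Agrn (ENSRNOG00000020205, 5q36), the proteoglycan that links laminin to dystroglycan and Lrp4, was measured at 168, 152 and 166 CPM at T0, 154, 136 and 126 CPM for T7-RA, 136, 126 and 105 CPM for T14-RA, 143, 153 and 137 CPM for T7+RA and 147, 134 and 129 CPM for T14+RA. The ranges with and without RA overlapped at both days. Its T14 term of −0.37 (SE 0.137, edgeR adjusted p = 0.0295) missed the threshold of 0.001, and the RA term was 0.11, with a 95% interval from −0.10 to 0.31.

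**Figure D3:**
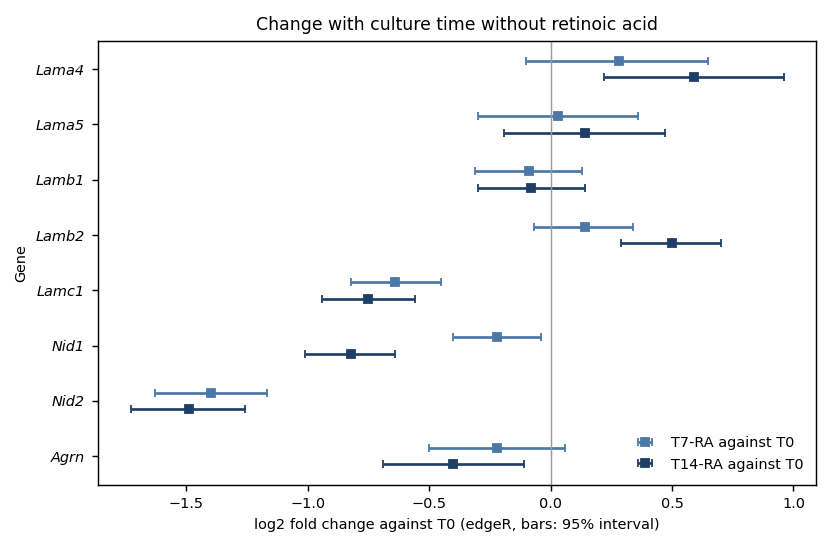
Log2 fold change of T7-RA and T14-RA against T0 for each gene, with edgeR's estimate as a square and its 95% interval as a bar. Nid2 and Lamc1 lie below 0 at both days, and Nid1 moves from −0.22 at day 7 to −0.82 at day 14.

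Counted over the 8 measured genes, the T7 term called 1 (Lamc1, lower), where 8.73% of all genes were called, 4.29% higher and 4.44% lower. The T14 term called 3 (Lamb2 higher, Lamc1 and Nid1 lower), where 17.3% were called, 8.47% higher and 8.85% lower. The RA term called 3 (Lama5 and Nid1 higher, Lama4 lower), where 6.39% were called, 3.33% higher and 3.07% lower. At day 7 RA called 3 (Nid1 and Nid2 higher, Lama4 lower), against 1.87% of all genes higher and 1.30% lower, and at day 14 it called 2 (Lama4 and Nid2, both lower), against 2.46% higher and 2.35% lower. The difference between days called Nid2 alone, against 0.285% of genes higher and 0.458% lower.

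In the second week Nid1 was called lower without RA, against 1.87% of all genes higher and 1.09% lower, and Nid1 and Nid2 were called lower with RA, against 2.40% higher and 2.26% lower. The contrasts of the -RA arm with T0 were added after the data were seen and share the T0 cultures. They called 2 of the 8 at T7-RA (Lamc1 and Nid2, both lower), where 8.78% of genes were called, 4.23% higher and 4.54% lower. At T14-RA they called 4 (Lamb2 higher, Lamc1, Nid1 and Nid2 lower), where 15.7% were called, 7.83% higher and 7.84% lower. The median log2 change of the 8 was 0.14 for RA, −0.08 for T7 and −0.25 for T14, beside medians over all genes of −0.01, 0.02 and 0.05.

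These counts depended on the test. Limma, the tool named by the study, was run here on quantile-normalized log2(count + 1), a normalization that the study does not state. Its RA term called Lama4 alone (adjusted p = 0.000232), with 2.68% of all genes called. The T7 and T14 terms called 0 of the 8 (2 and 6 at an unadjusted p under 0.05), with 2.57% and 9.46% of all genes called. Nid2 was called at day 14 (adjusted p = 0.00069) and in the difference between days (adjusted p = 0.00111), where 1.36% and 0.190% of all genes were called. At day 7 the adjusted p of Nid2 was 0.00167 and that of Nid1 was 0.0322, and for the RA term of Nid1 it was 0.113. Over all genes that test called 310 for RA, and edgeR called 740. DESeq2 called 1, 4 and 3 of the 8 for the T7, T14 and RA terms, with 7.06%, 14.5% and 5.63% of all genes called. Limma-voom, another way to run limma, called 2, 4 and 3, with 7.35%, 15.5% and 6.07% of all genes called.

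Compared per length, the make-up of each pair of related genes can be read from the plot of pair shares. Without RA, Lama4 made up 12.8% ± 2.94 (SD, n = 3) of the sum of Lama4 and Lama5 at day 7 and between 13.7% and 14.8% at day 14. With RA it made up 4.81% ± 0.827 and 5.94% ± 0.963. The ranges with and without RA did not overlap at either day. The other alpha chains on the family list are not in this sum. Lamb1 made up 51.1% ± 2.5 of the sum of Lamb1 and Lamb2 at the start. Its share was 47.2% ± 1.25 and 41.2% ± 0.929 without RA at days 7 and 14, and 53.4% ± 0.569 and 45.2% ± 0.681 with RA. Within each arm the day 14 share was below the day 7 share, and at each day the +RA share was above the -RA share, with no overlap of cultures.

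Nid1 was the larger part of the nidogens throughout. Its share per length was 71.4% ± 1 (SD, n = 3) at the start. Without RA it was 85% ± 0.929 at day 7 and 80% ± 0.265 at day 14, and with RA it was 81.3% ± 0.513 and 90.8% ± 1.04. The share with RA was thus below that without RA at day 7 and above it at day 14, with no overlap of cultures at either day. These shares are a description, and no test was made on them.

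**Figure D4:**
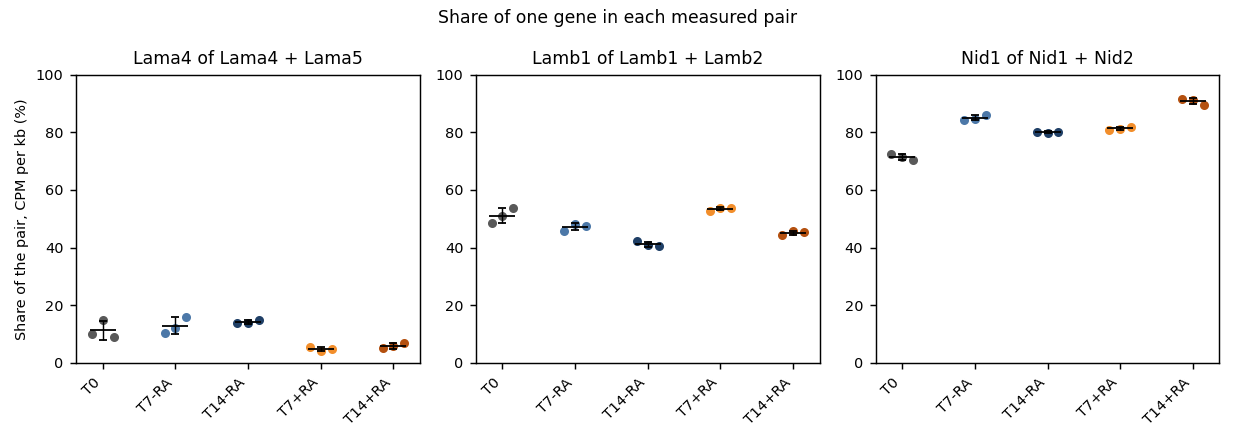
Share (%) of Lama4 in Lama4 plus Lama5, of Lamb1 in Lamb1 plus Lamb2 and of Nid1 in Nid1 plus Nid2, from CPM per kb, for 3 cultures per group with the mean and SD. The Lama4 share is between 4.02% and 6.97% in the +RA cultures and between 9.04% and 16.1% in all others.

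Across the 15 libraries the members did not move as 1 block. The highest Pearson correlations of log2 CPM were 0.79 between Lama5 and Lamb1, 0.74 between Nid1 and Nid2 and 0.69 between Lamc1 and Agrn, and the lowest were −0.70 between Lamb2 and Nid2 and −0.68 between Lama4 and Lamb1. These are descriptions over libraries that share groups and scaling. Among 8379 genes with a mean count of at least 10, the pattern most like that of Nid1 was Col4a5 (r = 0.965), which encodes a collagen IV chain, followed by Lima1 (0.931) and Ext1 (0.927). Lamc1 was most like Hnrnpl (0.952), Ctif (0.938) and Tgfb1i1 (0.934), Lama4 most like Atp2b4 (0.943), Olfml2b (0.924) and Gpm6b (0.915), and Lama5 most like Etl4 (0.924), Efcab14 (0.923) and Vps13d (0.918). For Lamb1 the closest were Heg1 (0.884), Tanc1 (0.844) and Errfi1 (0.832).

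The partners of these genes were described from lists. Of 21 other basement membrane components 15 were measured, and 7 fell and 1 rose at T14 (background 17.3% in either direction), among them Col4a1, a chain of the main collagen IV network (−1.58, SE 0.102), Pxdn, the peroxidase that crosslinks collagen IV (−1.47, SE 0.107), Col4a2 (−1.20, SE 0.106) and Smoc1 (−4.45, SE 0.25). RA raised Col4a1 by 0.53 (SE 0.08, edgeR adjusted p = 6.47e-07) and Sparc, a collagen-binding matricellular protein, by 0.36 (SE 0.0659, edgeR adjusted p = 2.19e-05), and Frem1, of a dermal-epidermal basement membrane complex, fell by 1.72 (SE 0.154, edgeR adjusted p = 1.18e-13). The median over the list was −0.71 at T14 and 0.09 with RA. Limma on quantile-normalized counts called 5 of the 15 and 9.46% of all genes at T14.

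Of 13 receptors of laminin and agrin 12 were measured, and the RA term raised 4, with 6.39% of all genes called in either direction. They were Itga7, the main laminin-binding integrin chain of muscle (1.77, SE 0.0759), its partner Itgb1 (0.65, SE 0.0672), Dag1, the dystroglycan core protein (0.64, SE 0.0779, edgeR adjusted p = 2.01e-09), and Itga3 (1.50, SE 0.199). At T14 the agrin receptor Lrp4 was higher by 1.74 (SE 0.166, edgeR adjusted p = 3.3e-12), and Sdc1, a heparan sulfate proteoglycan of the cell surface, fell by 1.53 (SE 0.101, edgeR adjusted p = 2e-19). At T14 a total of 3 receptors rose and 3 fell, with 8.47% of all genes higher and 8.85% lower, and Itga7 was among the former (1.28, SE 0.11) and Itgb1 among the latter (−0.62, SE 0.0883). At day 7 edgeR called the 4 receptors raised by the RA term higher and 0 lower, with 3.17% of all genes called. Itga3 was higher by 2.09 at day 7 (SE 0.135) and by 0.86 at day 14 (SE 0.14). At day 14 RA also raised these 4 and lowered Lrp4 (−0.74, SE 0.13, edgeR adjusted p = 1.17e-05) and Bcam (−1.70, SE 0.299, edgeR adjusted p = 1.38e-05), with 4.81% of all genes called. Bcam, a laminin-binding surface protein, had 222 counts over all libraries. The day 7 changes of Lrp4 and Bcam, −0.16 (SE 0.134) and 0.54 (SE 0.401), were not called. For the difference between days edgeR called 2 of the 12 receptors, both lower, with 0.743% of all genes called, and limma on quantile-normalized counts called 0. Limma on quantile-normalized counts called 2 of the 12 receptors for the RA term, 3 at T14 and 1 for RA at day 14, where it called 2.68%, 9.46% and 1.36% of all genes.

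Of 12 enzymes that build the laminin-binding glycan of dystroglycan 10 were measured. In edgeR 0 were called for RA or T14, where 2 and 3 had an unadjusted p under 0.05, and DESeq2 and limma-voom also called 0, with 6.39% and 17.3% of all genes called by edgeR. Pomgnt1 was the 1 called at T7 (−0.53, SE 0.117, edgeR adjusted p = 0.000483), where 8.73% of all genes were called. Of 18 genes of heparan sulfate synthesis and editing 14 were measured, and RA raised Sulf1, an extracellular sulfatase, by 0.54 (SE 0.0891, edgeR adjusted p = 3.06e-06) and Hs6st1, a sulfotransferase, by 0.56 (SE 0.119, edgeR adjusted p = 0.000309), with 6.39% of all genes called. DESeq2 called 1 of the 14 for RA, limma-voom called 2, and limma on quantile-normalized counts called 0, with 9 at an unadjusted p under 0.05. Of all genes these tools called 5.63%, 6.07% and 2.68% for RA. At T14, 4 of the 14 fell and 1 rose, where 8.85% of all genes fell and 8.47% rose, with changes of −1.75 for Sulf1 (SE 0.115), −0.95 for Ext1, which polymerizes the chain (SE 0.134), −0.98 for Hs6st1 (SE 0.161) and 1.07 for Glce (SE 0.211).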

How the data were processed

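RNA-seq counts of 15 H9c2 cultures were analysed. The authors trimmed the reads, mapped them with HISAT2, counted them per gene with featureCounts, and deposited raw counts of genes with more than 20 counts over all libraries, without normalization. The genome build Rnor_6.0 comes from the submitters' processing notes, and the strand setting is not given in the sources used here, so overlapping genes on opposite strands cannot be told apart. In the RefSeq gene table of GRCr8, Lama4 overlaps 3 genes and Lamc1 overlaps 1, all with provisional LOC names, and the other analysed members overlap no gene. These LOC names are absent from the count table. That table was made on another build, Rnor_6.0, so a gene listed there under another name would be missed. Whether reads of overlapping genes entered the counts was not tested. The deposited table also holds a gene length in bases, read as that of the longest transcript, and it was used for levels per kb. Symbols, identifiers and bands are those deposited.

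The counts were fitted in edgeR 4.0.16 (R 4.3.3) with TMM factors and robust quasi-likelihood dispersions, without a further filter. The SE was the log2 change divided by the root of F. The study's formula has T7, T14 and RA terms fitted in limma, and edgeR took its place because the values are counts. Log2 CPM used a prior count of 2. Alternatives were DESeq2 1.42.0, limma-voom and limma on quantile-normalized log2(count + 1) (limma 3.58.1), RLE size factors, library size only, filterByExpr, a floor of 10 counts per library, the replicate number as a block, other thresholds and omission of each library. Statistics were tested on simulated data.

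The members, lists and tests were chosen with earlier results of these data known. The GGGCGG and TATAAA motifs, the Nid1 share of the nidogens and the contrasts with T0 were added after the data were seen. Some listed genes are not reported here. All members are described, and up to 4 called genes of each other list with the lowest p are named for the T14 and RA terms. Bcam and the marker genes singled out were chosen after their values were seen. Replicates are separate cultures of 1 line, and p-values measure the spread between them. A chi-square test of counts found a difference between the libraries of each replicate pair, so all 15 were kept. Totals of 508397 to 1030820 counts limit the precision of low genes. Sequences are from RefSeq (GRCr8), where 8 of the 10 listed genes matched a promoter.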

Additional observations from a re-analysis of the deposited data

Results flagged for a closer look

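The RA change of Nid2 differed between the days by a test of the difference itself. It was 1.03 at day 7 and −1.07 at day 14, a difference of −2.10 on the log2 scale (SE 0.184, edgeR adjusted p = 3.06e-13). All 3 T7+RA cultures were above all 3 T7-RA cultures, and all 3 T14+RA cultures were below all 3 T14-RA cultures. The cause was not tested.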

How the results depend on the processing

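Over 24 alternatives for each of 8 genes in 10 comparisons, 1831 values kept their direction and side of the threshold, 31 lost the call, 17 gained it and 41 changed sign, all in uncalled changes. With limma on quantile-normalized counts the members called were 0 for T7, T14, RA at day 7 and the second week without RA (2, 6, 5 and 2 at an unadjusted p under 0.05), and 1 for the RA term, RA at day 14, T7-RA against T0 and T14-RA against T0. Of all genes it called 2.57%, 9.46%, 0.838% and 0.484% for the former comparisons, and 2.68%, 1.36%, 2.07% and 7.92% for the latter. With limma-voom the T7 term called 2, with 7.35% of all genes called. An adjusted p of 0.05 gave 5 for RA at day 7, 6 for T14 and 2 for the second week without RA, with 7.41%, 35.4% and 7.79% of all genes called. RA at day 14 called 1 to 2 when a library was left out, with 1 without T14-RA replicate 1 or T14+RA replicate 1. Same-numbered replicates were not treated as paired. Their deviations correlated by 0.018 on average and those of different numbers by −0.009, which does not settle whether they were paired. With the replicate block in edgeR the difference between days called 2, Nid1 joining at −0.419 (adjusted p = 0.046). Over all genes the block gave more calls in each comparison, with 118 in place of 86 for this difference. For RA at day 7 it gave 429 in place of 367, and at day 14 it gave 628 in place of 557. The block changed no other call of the 8 genes.

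Signs turned as follows, on the log2 scale. With limma on quantile-normalized counts the values were 0.00595 for the Lama4 difference between days, 0.0261 for Lama5 in the second week with RA, 0.127, 0.0402, 0.0567 and 0.11 for Lamb1 at T7, T14, T7-RA and T14-RA against T0, −0.0219 for Lamb2 with RA at day 7, −0.0412 and −0.114 for Lamc1 with RA at day 14 and over both days, 0.0577 for Nid1 at T7 and −0.0345 for the RA term of Nid2. With library size only they were 0.0678, 0.0219 and 0.0242 for Lamb1 at T7, T7-RA and T14-RA against T0, and −0.0169 for Lamb2 with RA at day 7, and with at least 10 counts per library the T7 term of Lamb1 was 0.00216. Leaving out a library gave −0.226 to 0.0974 for the Lama4 difference. For Lama5 it gave −0.101 to 0.251 at T7, −0.0505 to 0.302 at T14, −0.135 to 0.213 and −0.0112 to 0.337 for T7-RA and T14-RA against T0, and −0.00389 to 0.215 and −0.101 to 0.0581 in the second week without and with RA. For Lamb1 it gave −0.154 to 0.152 at T7, −0.24 to 0.0654 at T14, −0.2 to 0.1 and −0.184 to 0.117 against T0, and −0.0294 to 0.0527 in the second week without RA. For Lamb2 it gave −0.0112 to 0.038 with RA at day 7 and −0.0356 to 0.00161 for the RA term. The causes were not tested.

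Over all genes, library size only moved the median to 0.13 at T7 and 0.15 at T14 and made 648 of 1006 and 1221 of 2065 calls higher, in place of 496 of 1010 and 980 of 2004. Limma on quantile-normalized counts called 297 at T7, 1095 at T14, 97 for RA at day 7 (edgeR 367), 157 at day 14 (edgeR 557) and 22 for the difference (edgeR 86). Chain shares by coded protein length were not run. Lama4 had 26 to 107 counts per library, and the part of depth in its lost single-day calls was not tested.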
